A study of Mus musculus with 12 samples.

Results

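The 37 genes described here encode proteins of the kinetochore and of the spindle checkpoint, and form a list of named genes. Each was matched by its symbol, or an older symbol of the same gene, to the authors' gene table, and all 37 had a row among the 28427 rows. All 37 also passed the filter on low counts that left 13951 genes for testing. RNA was taken from mammary epithelial cells of C57BL/6 mice grown in 4 ways, with 3 libraries each: monolayers on collagen-coated dishes for 48 h or 96 h, and spheroids embedded in Matrigel, a gel of basement membrane proteins, for 48 h or 96 h. The medium of all cultures held progesterone and prolactin, and that of the gels was renewed after 48 h. Matrix and culture format changed together, so their parts in a difference cannot be told apart. The renewal of medium, named for the gels only, went with format at 96 h and with time in spheroids. Its part cannot be told apart either. The series is titled as a study of how cells are influenced from outside in segregating their chromosomes, and the comparisons ask how the genes of that machinery stood in each format and time.

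The kinetochore is the protein structure on each centromere that holds a chromosome to spindle microtubules. Its inner layer, built on the centromeric histone CENP-A, stays on chromatin through the cell cycle, and its outer layer, the KNL1, MIS12 and NDC80 complexes, binds microtubules in mitosis. The spindle checkpoint is a signal from unattached kinetochores that keeps CDC20 from activating the anaphase-promoting complex, and the chromosomal passenger complex loosens faulty attachments. Many of these transcripts are made mainly in late S, G2 and M phase, so in bulk RNA their level follows how many cells are dividing as well as how much each dividing cell makes. These cannot be told apart here, and neither can fewer cells of a type and less RNA per cell.

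Library totals lay between 7674105 and 13554497 counts. The sources used here do not say which animals the replicate libraries came from, so p-values measure only the spread between these samples. Replicates of a group differed by more than counting error (chi-square per degree of freedom 2.49 to 18.4, highest between replicates 1 and 3 of the 48 h monolayers). The 6 epithelial markers summed to 4911 to 5550 FPKM in 48 h monolayers, 3118 to 3323 in 48 h spheroids, 2269 to 2367 in 96 h monolayers and 3163 to 3331 in 96 h spheroids, most of it Krt8, Krt18 and Epcam. The basal keratins Krt5 and Krt14 were lowest in 96 h monolayers and higher in spheroids, the order of the genes described here at each time. Krt5 had means of 32.7 FPKM in 48 h monolayers, 99.5 in 48 h spheroids, 4.82 in 96 h monolayers and 59.6 in 96 h spheroids, and Krt14 had means of 280.1, 631, 47.0 and 549.7 FPKM in the same order. All 7 fibroblast markers were detected as well, at 1473 to 1620 FPKM in 48 h monolayers, 465 to 502 in 48 h spheroids, 487 to 587 in 96 h monolayers and 160 to 170 in 96 h spheroids, most of it collagen in 48 h monolayers. Pdgfra and Dcn went against that sum and were highest in 96 h monolayers, with means of 22.3 and 177 FPKM there against 6.77 and 54.7 FPKM in 48 h monolayers. Endothelial markers summed to 21.6 to 22.3 FPKM in 96 h monolayers and to 1.75 to 16.5 FPKM elsewhere. The 6 immune markers summed to 25.2 to 35.7 FPKM in 96 h monolayers and to 4.65 to 11.2 FPKM elsewhere, with Ptprc, which marks all leukocytes, at a mean of at most 0.0933 FPKM in each group. The immune sum in 96 h monolayers was mostly Cd68, a lysosomal protein, at 33.8, 26.9 and 22.1 FPKM. The 5 adipocyte markers summed to 451 to 506 FPKM in 48 h spheroids and to 48.3 to 139 FPKM elsewhere, nearly all of it Fabp4, with Adipoq at a mean of at most 0.280 FPKM and Lep at 0 in all but 1 library. Plin1 and Cidec were low but also highest in 48 h spheroids, with means of 1.10 and 0.213 FPKM. In the other groups their means were at most 0.0667 and 0.0900 FPKM. The part of other cells in the results below was not tested.

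By their median level, kinetochore and checkpoint genes were lowest in 96 h monolayers, higher in 48 h monolayers, higher again in 48 h spheroids, and highest in 96 h spheroids. In FPKM, which corrects counts for gene length and library depth, the median over the 37 genes was 7.35, 7.45 and 7.50 in the 48 h monolayers and 12.04, 11.8 and 11.2 in the 48 h spheroids. It was 1.42, 2.03 and 1.73 in the 96 h monolayers and 12.8, 12.3 and 13.4 in the 96 h spheroids. These medians did not overlap between any pair of groups, and the narrowest gap was that between the spheroids of 48 h and 96 h. The median over all 13951 genes tested stayed between 7.62 and 8.99 FPKM. In the 96 h monolayers the median gene of the set stood above 17.9% to 22.1% of the tested genes, against 48.5% to 50.4% in the 48 h monolayers, 58.1% to 59.5% in the 48 h spheroids and 61.8% to 62.7% in the 96 h spheroids.

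**Figure D1:**
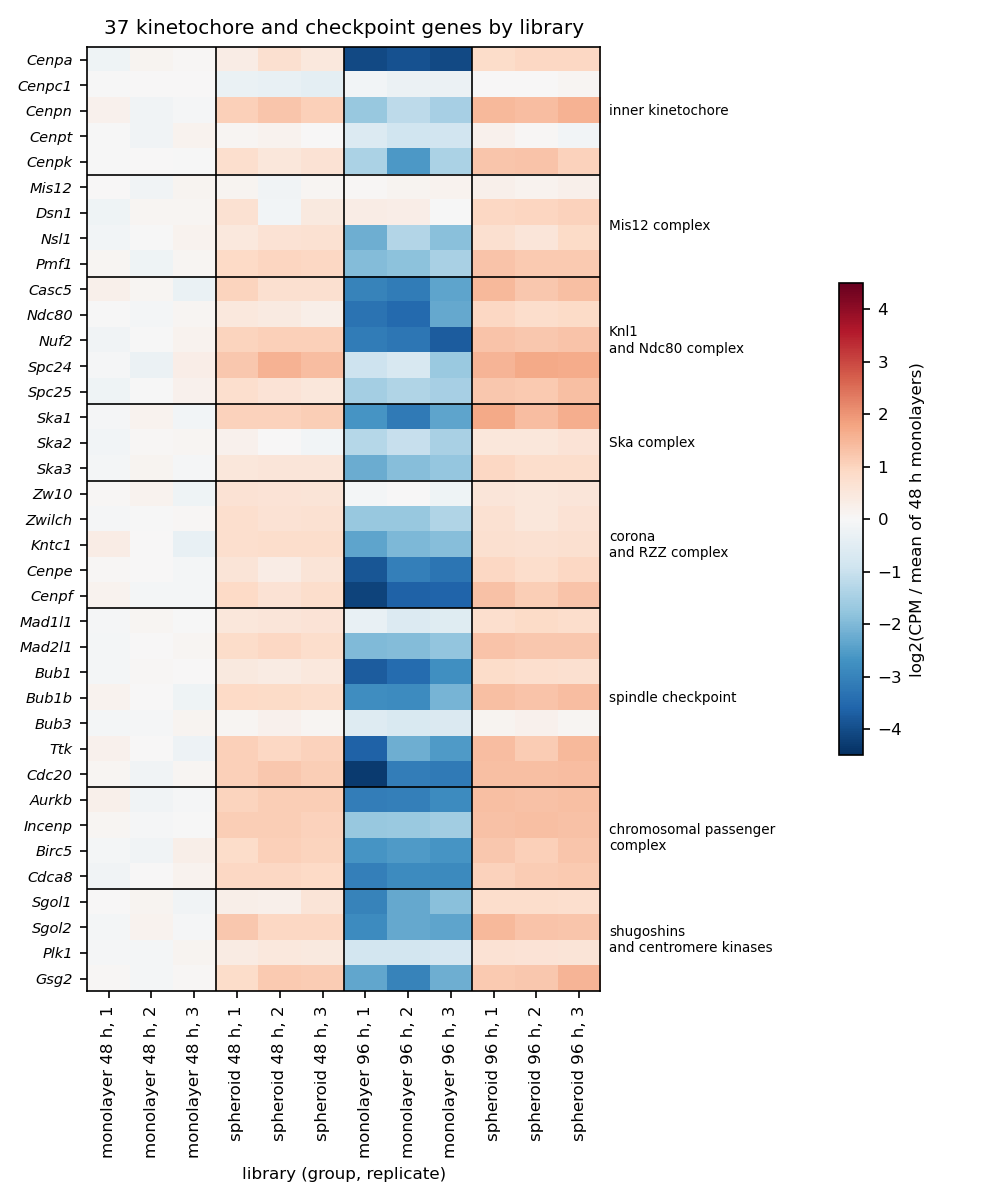
Level of each of the 37 genes (down, by complex) in each of the 12 libraries (across), as log2 of CPM over the mean of the 3 monolayer libraries of 48 h; blue is lower, red higher. The 96 h monolayers are blue for most genes, with Cenpa at the dark end (1.68 to 1.88 CPM), while Cenpc1, Mis12, Dsn1 and Zw10 stay near white.

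At 48 h, 31 of the 37 genes rose in spheroids against monolayers and 1, Cenpc1, fell (edgeR's quasi-likelihood test, Benjamini-Hochberg adjustment over all genes tested, threshold 0.05). Over all genes tested, 31.6% rose and 26.4% fell. The median log2 change was 0.69, against 0.05 over all genes. At 96 h, 36 of 37 rose and none fell, with a median log2 change of 2.98, where 37.3% of all genes rose and their median was -0.00. With time in monolayers 34 fell and none rose (31.3% of all genes fell), with a median log2 change of -1.96. With time in spheroids 27 rose and none fell (19.3% of all genes rose), with a median of 0.31. By the interaction of format and time, the log2 change of spheroids against monolayers was higher at 96 h than at 48 h for 34 of 37 genes. Of all genes, 26.9% had a positive interaction. The median difference of the 37 genes was 2.27 log2 units. For Cenpc1, among the 34, the change turned from -0.36 at 48 h to 0.24 at 96 h. All 3 libraries of the spheroids lay above all 3 of the monolayers for 31 genes at 48 h and 36 at 96 h (32.7% and 40% of all genes), and below them for 1 and 0 (27.3% and 38.9%). The 96 h monolayers lay wholly below those of 48 h for 34 (31.8% of all genes), and the 96 h spheroids wholly above those of 48 h for 28 and below for 2 (27.6% and 26.2%). The comparisons share groups, so their counts are not independent of each other. On the authors' log2(FPKM + 1) values the median fall in monolayers was smaller, at -1.27, where the pseudocount of 1 is close to the median level. Without replicate 1 of the 48 h spheroids, the rise with time in spheroids was called for 17 genes, and 12 of the 27 lost their call in at least 1 alternative.

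**Figure D2:**
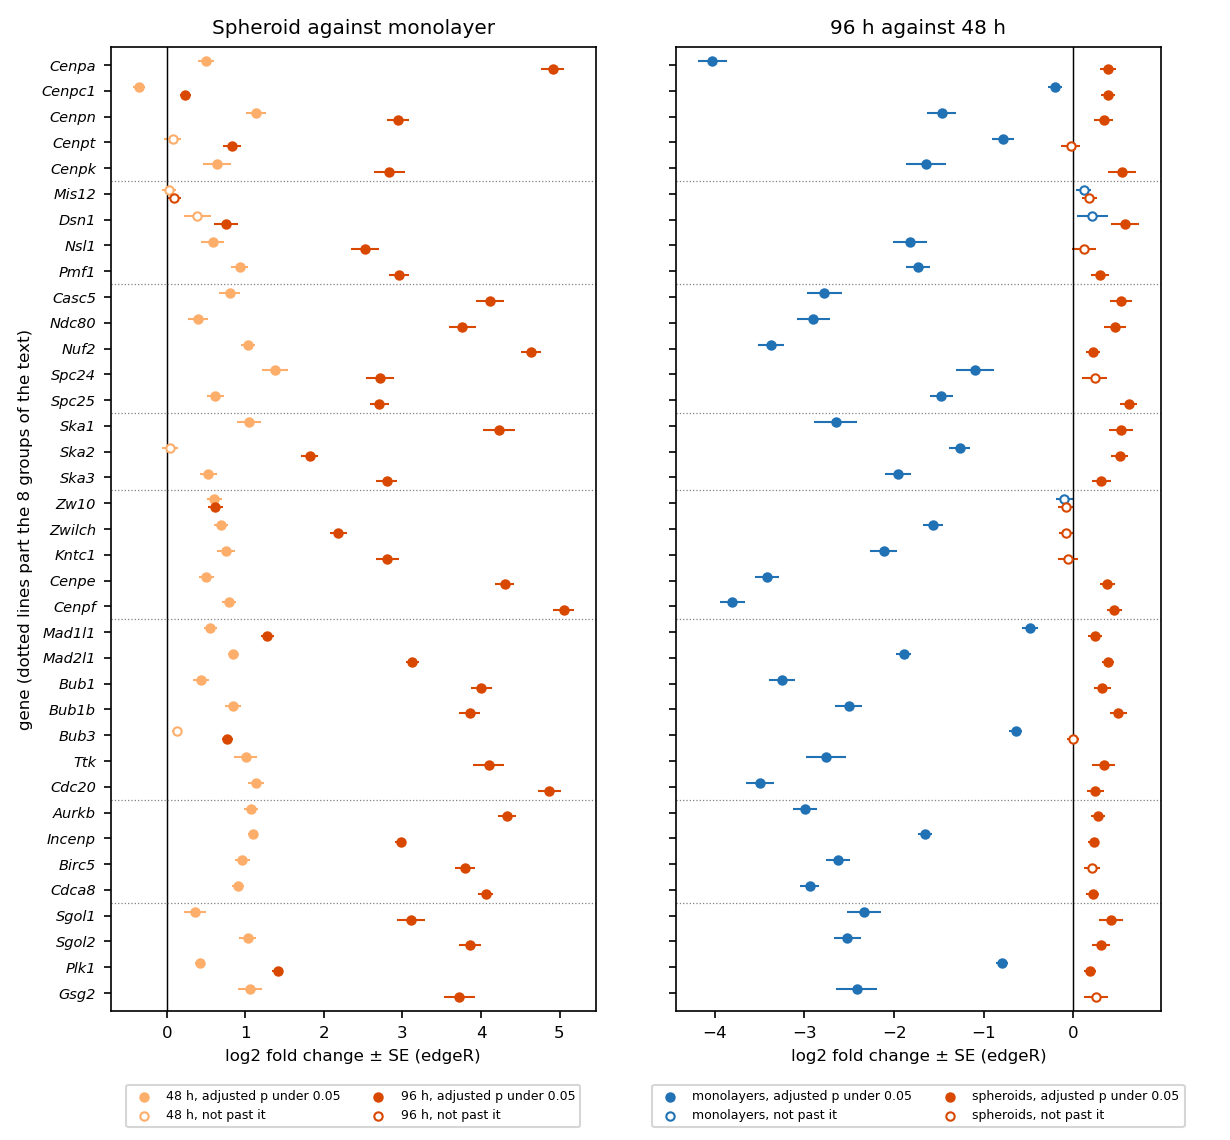
Log2 fold change with its SE from edgeR for each gene, spheroid against monolayer (left, 48 h and 96 h) and 96 h against 48 h (right, monolayers and spheroids); filled points have an adjusted p under 0.05. The changes at 48 h lie between -0.36 and 1.38 and those at 96 h between 0.09 and 5.05, and the falls with time in monolayers reach -4.03 while the changes in spheroids stay between -0.09 and 0.62.

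Genes of proliferation moved with the set in the spheroid contrasts and with time in monolayers, but less uniformly with time in spheroids. All 12 proliferation references rose in spheroids at both times, with median log2 changes of 0.90 at 48 h and 3.10 at 96 h, and all 12 fell with time in monolayers (median -2.19). Of all genes tested, 31.6% and 37.3% rose in spheroids at 48 h and 96 h, and 31.3% fell with time in monolayers. With time in spheroids 5 of the 12 rose and 2 fell (Rrm2 and Tyms, log2 change -0.44 and -0.21), with a median of 0.17. Of all genes tested, 19.3% rose and 20.5% fell in that comparison. The difference of the references from the 37 genes was not tested. Mki67, a marker of cycling cells, stood at 163, 143 and 117 CPM in 48 h monolayers and 371, 319 and 352 CPM in 48 h spheroids. It stood at 14, 15.3 and 23.9 CPM in 96 h monolayers and 515, 418 and 467 CPM in 96 h spheroids. Pcna, the sliding clamp of DNA replication, fell less in monolayers (log2 change -1.07) than Ccnb1, the cyclin of mitotic entry (-4.37), or Top2a, the topoisomerase of chromosome condensation (-3.00). The median of the 37 genes at 96 h lay between those of the references and of 27 further kinetochore genes described last, and its dependence on the share of cycling cells was not tested.

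Promoter sequence was read for the genes that RefSeq's table for GRCm38.p6 holds, another build than the mm9 of the counts, as windows from 250 bases before to 50 bases after the transcription start. Of the 37 genes 31 had a window, 27 of them a single one; Nsl1, Spc24, Ska1, Zwilch, Aurkb and Incenp had none. The cell cycle genes homology region (CHR), a short element through which the DREAM and MYB-MuvB complexes time late cell cycle genes, was searched as TTTGAA or TTCGAA on both strands, and the CCAAT box, bound by NF-Y, as CCAAT on both strands. Matches of the 2 motifs were counted whether or not they overlapped. A CHR was found in 19 of the 31 genes (61.3%), counted in any window of a gene, against 21.7% of all 27025 genes counted the same way and 16.3% of the 9521 tested rows with a window. Per window, 19.2% of all 32851 held it. A CCAAT box was found in 20 of 31 (64.5%), against 41.1% of all genes and 43.1% of those rows, and 37.4% of all windows. The median log2 change at 96 h, spheroid against monolayer, was 3.73 over the 19 genes with a CHR (range 0.62 to 5.05) and 2.33 over the 12 without (0.09 to 4.63). Over all those tested rows it was 0.09 with a CHR and 0.01 without. For CCAAT the same medians were 3.03 over the 20 genes with a match and 3.12 over the 11 without. The ranges overlapped widely: Nuf2, with no CHR in its window, rose 24.8-fold, and Zw10, with a CHR, rose 1.54-fold. A match is a description of the letters, not of a site in use.

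The 100 bases before the start are shown for genes chosen after their values were seen. Cdc20 had a large rise at 96 h (log2 change 4.87). Ska3 and Cenpn (2.80 and 2.94) lay just under the median of the 37 genes (2.98). Bub3 had a small rise (0.77) and Mis12 none called (0.09). Capitals mark CHR and CCAAT matches, each read 5′ to 3′ on the gene's strand.
Cdc20 (chr4:118437344-118437443, minus strand): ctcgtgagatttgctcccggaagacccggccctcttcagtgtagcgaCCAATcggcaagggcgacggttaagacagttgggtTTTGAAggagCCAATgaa
Ska3 (chr14:57826164-57826263, minus strand): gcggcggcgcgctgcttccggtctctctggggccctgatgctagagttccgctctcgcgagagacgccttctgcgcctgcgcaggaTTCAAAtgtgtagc
Cenpn (chr8:116921640-116921739, plus strand): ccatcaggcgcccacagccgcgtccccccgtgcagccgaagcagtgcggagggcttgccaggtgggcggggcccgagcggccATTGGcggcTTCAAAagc
Bub3 (chr7:131560270-131560369, plus strand): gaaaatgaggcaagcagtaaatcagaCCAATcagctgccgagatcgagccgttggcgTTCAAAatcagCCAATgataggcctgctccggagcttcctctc
Mis12 (chr11:71019511-71019610, plus strand): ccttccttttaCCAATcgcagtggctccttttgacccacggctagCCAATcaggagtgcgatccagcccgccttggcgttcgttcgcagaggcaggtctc
The Cdc20 and Bub3 stretches both hold a CHR between a pair of CCAAT boxes, although the genes differ in response. The Mis12 stretch holds CCAAT boxes and no CHR, and the Ska3 stretch a CHR and no CCAAT box. In the Cenpn stretch a reverse CCAAT box lies a few bases before the CHR.

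The inner kinetochore held genes with some of the largest changes and genes with some of the smallest. Cenpa encodes the histone H3 variant that marks centromeres. It stood at 25, 30.5 and 29.5 CPM in 48 h monolayers and 35.5, 46.3 and 38.9 CPM in 48 h spheroids. It stood at 1.68, 1.88 and 1.68 CPM in 96 h monolayers and 49.5, 53.9 and 53.8 CPM in 96 h spheroids. Every 96 h monolayer lay more than 10-fold under every other library, and the log2 change at 96 h was 4.91 ± 0.149 (SE, adjusted p = 2.23e-15), a 30.1-fold difference. At 48 h the change was 0.50 ± 0.0981 (SE, adjusted p = 0.000276). Cenpn, which reads the CENP-A nucleosome, and Cenpk, of the constitutive centromere network, rose 7.68-fold and 7.11-fold at 96 h and 2.20-fold and 1.56-fold at 48 h.

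Cenpc1, the gene of CENP-C, which links CENP-A chromatin to the outer kinetochore, went the other way at 48 h. Its levels were 32.0, 32.9 and 33.1 CPM in 48 h monolayers and 26.7, 25.6 and 24.2 CPM in 48 h spheroids. At 96 h they were 30.3, 27.2 and 27.2 CPM in monolayers and 32.7, 32.7 and 34.7 CPM in spheroids. Spheroids were lower at 48 h without overlap (log2 change -0.36, SE 0.0781, adjusted p = 0.00071) and slightly higher at 96 h (0.24, SE 0.0752, adjusted p = 0.00882). The 96 h call held in 19 of 22 alternatives (adjusted p from 0.00525 to 0.102). Cenpc1 fell little with time in monolayers (log2 change -0.21, adjusted p = 0.0264). That call was kept in 13 of 22 alternatives (adjusted p from 0.0146 to 0.858). Cenpt, which anchors NDC80 to the inner kinetochore, stood at 18.5, 16.8 and 21.0 CPM in 48 h monolayers and 19.7, 20.6 and 18.9 CPM in 48 h spheroids, where the groups overlapped (log2 change 0.07, SE 0.112, adjusted p = 0.594). At 96 h it stood at 12.1, 10.2 and 10.2 CPM in monolayers and 21.6, 19.2 and 17.1 CPM in spheroids, 1.77-fold higher in spheroids. Cenpt was not called with time in spheroids (-0.03, adjusted p = 0.849), whereas Cenpa, Cenpc1, Cenpn and Cenpk rose (0.34 to 0.55). The shares of the 5 mRNAs in their summed FPKM shifted. Cenpa held 40.5% ± 3.14 of the sum in 48 h monolayers, 6.55% ± 0.932 in 96 h monolayers and 46.2% ± 1.86 in 96 h spheroids (SD, n = 3 each). Cenpc1 held 44.8% ± 2.42 in 96 h monolayers and 12.8% ± 0.475 in 96 h spheroids. Its own mean was 9.53 FPKM in 48 h monolayers and 9.42 FPKM in 96 h monolayers, where that of Cenpa was 19.2 and 1.37 FPKM.

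The MIS12 complex, which joins the inner to the outer kinetochore, had the smallest median change of the 8 groups at 96 h (1.64) with all rows kept. Without the rows that carry more than 1 symbol, the inner kinetochore was left with Cenpc1, Cenpn and Cenpt. Its median was then 0.83, below that of the MIS12 complex. Mis12 itself stood at 38.1, 33.4 and 41.1 CPM in 48 h monolayers and 40.8, 33.7 and 40.0 CPM in 48 h spheroids. Its 96 h levels were 39.2, 41.0 and 41.7 CPM in monolayers and 43.7, 41.6 and 44.3 CPM in spheroids. The groups overlapped at both times, with log2 changes of 0.03 ± 0.0875 (SE, adjusted p = 0.802) at 48 h and 0.09 ± 0.0841 (SE, adjusted p = 0.335) at 96 h. Mis12 was the only member not called in any of the 5 contrasts, a status it kept in all alternatives of the spheroid contrasts; in monolayers over time it was called higher in 2 of 22. Dsn1, another subunit, stood at 6.86, 8.38 and 8.23 CPM in 48 h monolayers and 12.7, 7.18 and 10.7 CPM in 48 h spheroids, with replicate 2 of the spheroids within the monolayers' range (log2 change 0.39, SE 0.17, adjusted p = 0.0576). By 96 h the levels were 9.92, 9.64 and 7.76 CPM in monolayers and 14.8, 15.1 and 16.1 CPM in spheroids, 1.69-fold higher in spheroids.

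The other subunits of the complex moved with the bulk of the set. Pmf1, which encodes NNF1, stood at 15.4, 12.4 and 15.3 CPM in 48 h monolayers and 26.4, 28.0 and 27.4 CPM in 48 h spheroids. The 96 h libraries stood at 3.68, 4.01 and 5.203 CPM in monolayers and 35.1, 32.8 and 32.6 CPM in spheroids, a log2 change of 2.96 ± 0.123 (SE, adjusted p = 1.91e-13). Nsl1 rose 5.75-fold at 96 h and 1.499-fold at 48 h. Mis12 held 40.9% ± 0.327 of the complex's summed FPKM in 48 h monolayers, 64.8% ± 1.79 in 96 h monolayers and 26.7% ± 0.606 in 96 h spheroids (SD, n = 3 each), with Pmf1 at 41.5% ± 2.66, 17.2% ± 3.39 and 55.4% ± 1.51.

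All 5 genes of the KNL1 and NDC80 group, the microtubule-binding layer, rose in spheroids at both times and fell with time in monolayers. Nuf2, a coiled-coil subunit that pairs with NDC80 at the microtubule, stood at 19.3, 21.2 and 24.2 CPM in 48 h monolayers and 43.0, 45.0 and 45.3 CPM in 48 h spheroids. After 96 h the gene stood at 2.40, 2.25 and 1.59 CPM in monolayers and 52.9, 50.4 and 52.0 CPM in spheroids, a log2 change of 4.63 ± 0.128 (SE, adjusted p = 7e-16). Spc25, which holds the inner end of the complex, stood at 11.96, 13.5 and 15.4 CPM in 48 h monolayers and 22.7, 20.6 and 19.3 CPM in 48 h spheroids. At 96 h it stood at 4.72, 5.26 and 4.85 CPM in monolayers and 31.0, 30.8 and 34.4 CPM in spheroids, a log2 change of 2.71 ± 0.119 (SE, adjusted p = 3.92e-13). Neither gene had overlapping groups at either time. Ndc80, the subunit that grips the microtubule, rose 1.32-fold at 48 h, called in 20 of 22 alternatives, and 13.57-fold at 96 h. Casc5, now named Knl1, the scaffold on which checkpoint proteins gather, rose 1.74-fold and 17.3-fold. Spc24, the partner of SPC25, had the largest rise of the 37 genes at 48 h (2.60-fold) yet a smaller rise than Nuf2 at 96 h (6.57-fold).

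The 4 NDC80 subunits work as a complex of equal parts, but their mRNAs fell unequally in monolayers. From 48 h to 96 h Nuf2 fell 10.4-fold and Ndc80 7.46-fold, against 2.77-fold for Spc25 and 2.146-fold for Spc24. In FPKM, Ndc80 and Nuf2 stood at 7.88 ± 0.444 and 8.28 ± 0.872 in 48 h monolayers and at 1.15 ± 0.566 and 0.917 ± 0.2003 in 96 h monolayers. Spc24 and Spc25 stood at 4.14 ± 0.747 and 9.27 ± 1.34 and then at 2.71 ± 0.886 and 3.79 ± 0.280 (SD, n = 3 each). The share of Spc25 in the summed FPKM of the group was 42.4% ± 1.48 in 96 h monolayers, against 28.9% ± 2.62 in 48 h monolayers, 24.8% ± 1.67 in 48 h spheroids and 29.1% ± 1.27 in 96 h spheroids. With time in spheroids 4 of the 5 rose; Spc24 did not pass (log2 change 0.24, SE 0.14, adjusted p = 0.193). The call of Nuf2 (log2 change 0.22, adjusted p = 0.0391) was kept in 11 of 22 alternatives (adjusted p from 0.00914 to 0.127).

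**Figure D3:**
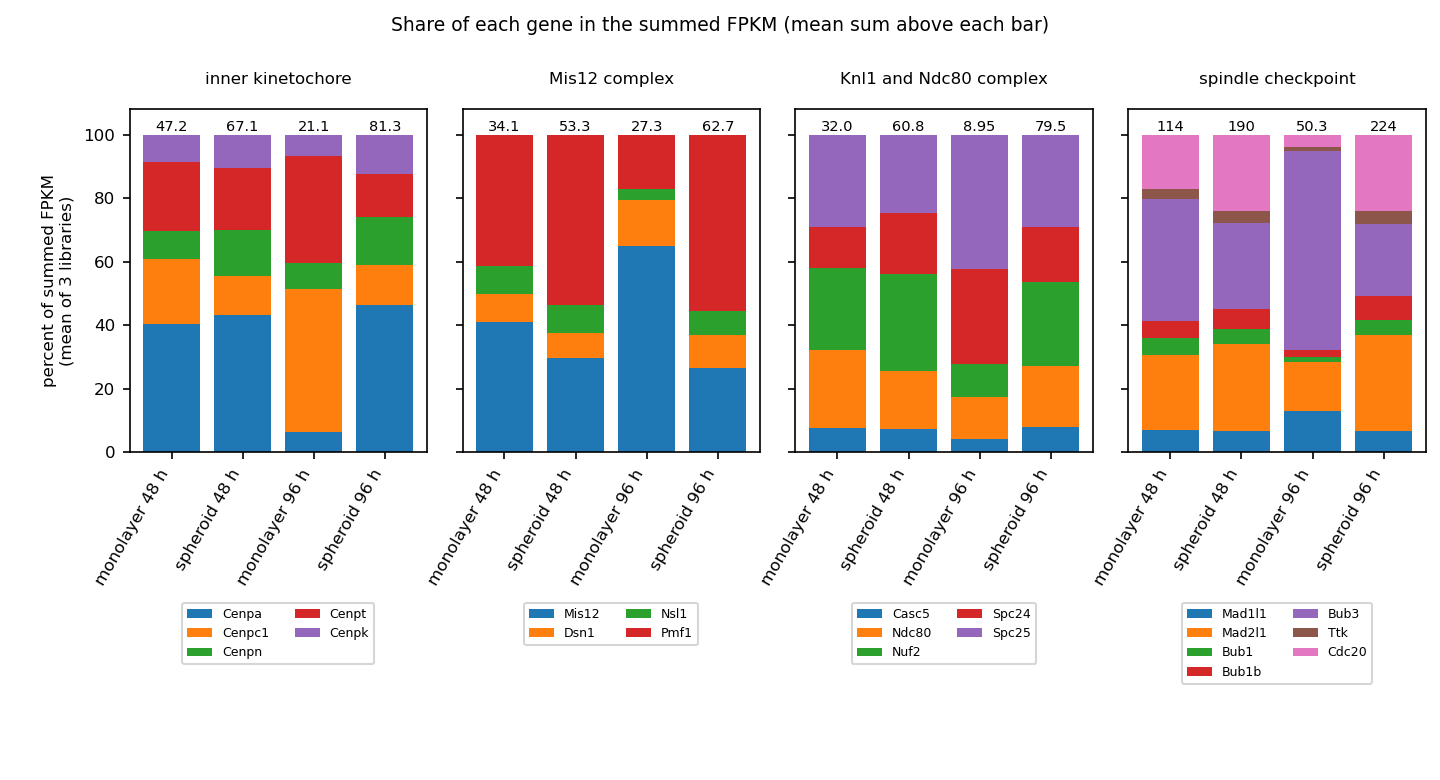
Mean share of each gene in the summed FPKM of its group (bars add to 100%), for 4 groups of genes in the 4 culture groups, with the mean summed FPKM printed above each bar. In 96 h monolayers Cenpc1, Mis12, Spc25 and Bub3 take the widest bands (44.8%, 64.8%, 42.4% and 62.6%), and the sums are the lowest of each panel.

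The SKA complex keeps kinetochores on moving microtubule ends. All 3 of its genes rose in spheroids at 96 h, but only 2 at 48 h. Ska1, its microtubule-binding subunit, stood at 4.41, 5.14 and 4.21 CPM in 48 h monolayers and 9.27, 9.38 and 9.91 CPM in 48 h spheroids. Its 96 h levels were 0.720, 0.501 and 0.882 CPM in monolayers and 15.1, 12.01 and 14.1 CPM in spheroids, a log2 change of 4.23 ± 0.2 (SE, adjusted p = 1.07e-12). The 96 h monolayers held 9, 4 and 10 counts of Ska1, so counting limits the precision of this value, and on the log2(FPKM + 1) scale the change was 2.27. Ska2 stood at 23.1, 25.8 and 26.7 CPM in 48 h monolayers and 28.8, 25.7 and 22.9 CPM in 48 h spheroids, with overlapping groups (log2 change 0.04, SE 0.103, adjusted p = 0.781). By 96 h the levels were 10.2, 12.4 and 9.17 CPM in monolayers and 35.9, 36.0 and 39.0 CPM in spheroids, 3.53-fold higher in spheroids. Ska3 rose 1.44-fold at 48 h and 6.96-fold at 96 h. All 3 rose with time in spheroids (log2 change 0.31 to 0.53).

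The corona genes encode the outermost, fibrous layer, which catches microtubules and recruits dynein and checkpoint proteins. All 5 rose at both times. Cenpf, a large protein made in G2, stood at 53.0, 44.3 and 44.5 CPM in 48 h monolayers and 88.0, 74.0 and 82.3 CPM in 48 h spheroids. The 96 h libraries stood at 2.64, 3.76 and 3.88 CPM in monolayers and 118, 102 and 116 CPM in spheroids, a log2 change of 5.05 ± 0.132 (SE, adjusted p = 3.07e-16), the largest of the 37. Cenpe, the kinesin motor that carries chromosomes to the spindle equator, rose 19.7-fold at 96 h. Zw10, of the RZZ (ROD, ZWILCH, ZW10) complex, stood at 21.2, 23.0 and 17.9 CPM in 48 h monolayers and 32.4, 31.4 and 30.6 CPM in 48 h spheroids. After 96 h the gene stood at 19.4, 20.7 and 17.99 CPM in monolayers and 29.7, 29.5 and 29.7 CPM in spheroids. The log2 changes were 0.60 at 48 h and 0.62 at 96 h, with an interaction of 0.015 (SE 0.13, adjusted p = 0.935), and Zw10 was not called with time in either format. Zwilch rose 4.54-fold and Kntc1, which encodes ROD, 7.00-fold at 96 h. None of the 3 RZZ genes was called with time in spheroids (log2 change -0.09 to -0.06), while Cenpe and Cenpf rose (0.38 and 0.46).

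Of the 7 spindle checkpoint genes, 6 rose at 48 h and all 7 at 96 h. Cdc20, the activator of the anaphase-promoting complex that the checkpoint restrains, stood at 39.0, 32.9 and 38.6 CPM in 48 h monolayers and 77.0, 84.5 and 80.2 CPM in 48 h spheroids. At 96 h it stood at 1.84, 4.26 and 4.06 CPM in monolayers and 95.0, 94.3 and 97.3 CPM in spheroids, with replicate 1 of the monolayers lowest, and a log2 change of 4.87 ± 0.145 (SE, adjusted p = 1.85e-15). Bub3, a carrier protein that brings BUB1 and BUBR1 to kinetochores, stood at 89.7, 92.9 and 105 CPM in 48 h monolayers and 102, 111 and 102 CPM in 48 h spheroids, with overlapping groups (log2 change 0.13, SE 0.069, adjusted p = 0.123). Its 96 h levels were 64.0, 59.5 and 60.5 CPM in monolayers and 104, 109 and 101.1 CPM in spheroids, without overlap but only 1.70-fold higher. The promoter stretches of both genes, shown above for 1 of the 2 starts of Bub3, hold the same pair of motifs.

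The kinase genes Bub1 and Ttk, whose product MPS1 starts the signal, rose 16.1-fold and 17.1-fold at 96 h. Bub1b, which encodes BUBR1, and Mad2l1, both part of the inhibitor that binds CDC20, rose 14.5-fold and 8.72-fold. Mad1l1, which holds MAD2 at the kinetochore, rose 2.43-fold. In monolayers from 48 h to 96 h the kinases and the CDC20 activator fell most (11.3-fold for Cdc20, 9.50-fold for Bub1 and 6.76-fold for Ttk), and the scaffolds least (1.56-fold for Bub3 and 1.40-fold for Mad1l1). Bub3 held 62.6% ± 2.66 of the summed checkpoint FPKM in 96 h monolayers, against 38.4% ± 1.73 in 48 h monolayers and 22.7% ± 0.892 in 96 h spheroids (SD, n = 3 each). Cdc20 held 3.97% ± 1.59, 17.1% ± 1.58 and 24.0% ± 0.398. The ratio of the inhibitor's Mad2l1 mRNA to that of its target also differed: in FPKM, Mad2l1 stood at 7.85 ± 0.704 and Cdc20 at 1.99 ± 0.762 in 96 h monolayers, and at 67.5 ± 1.34 and 53.5 ± 0.683 in 96 h spheroids. With time in spheroids 6 of the 7 rose, by at most 0.50 log2 units; the calls of Cdc20 (adjusted p = 0.0455) and Ttk (0.0451) were kept in 10 and 9 of 22 alternatives (adjusted p from 0.0018 to 0.24 for Cdc20 and from 0.00828 to 0.177 for Ttk).

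**Figure D4:**
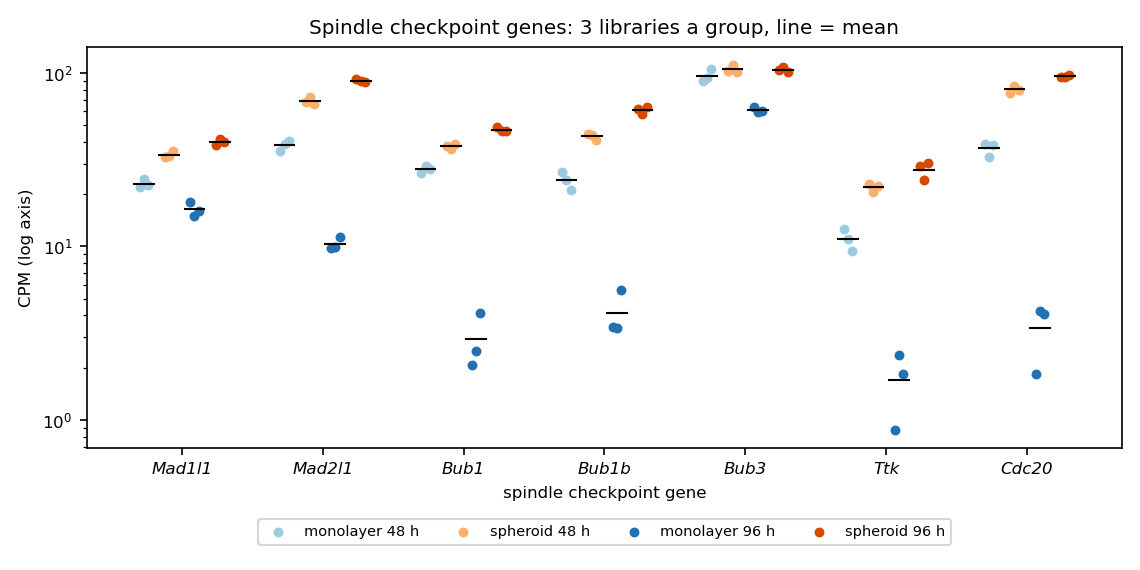
CPM of the 7 spindle checkpoint genes in each library (points, 3 a group, log axis) with the group mean (line). The monolayer libraries of 96 h lie lowest for every gene, furthest for Cdc20 (1.84 to 4.26 CPM) and least for Bub3 and Mad1l1.

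All 4 genes of the chromosomal passenger complex rose at both times, with median changes of 1.01 at 48 h and 3.93 at 96 h. The 96 h median was close to those of the checkpoint and of KNL1 and NDC80: without replicate 3 of the 96 h monolayers it was 3.94, against 4.15 and 4.26 for those groups. Aurkb, the kinase that releases wrong attachments, stood at 25.5, 19.5 and 21.5 CPM in 48 h monolayers and 44.6, 47.0 and 47.3 CPM in 48 h spheroids. By 96 h the levels were 2.56, 2.63 and 3.09 CPM in monolayers and 56.4, 55.3 and 55.9 CPM in spheroids, a log2 change of 4.33 ± 0.12 (SE, adjusted p = 7e-16). Birc5, which encodes survivin, stood at 32.3, 30.4 and 40.8 CPM in 48 h monolayers and 60.9, 72.6 and 68.5 CPM in 48 h spheroids. The 96 h libraries stood at 5.44, 5.89 and 5.47 CPM in monolayers and 79.4, 72.2 and 80.7 CPM in spheroids, a log2 change of 3.796 ± 0.124 (SE, adjusted p = 5.57e-15). Incenp, the scaffold that activates Aurora B, stood at 40.6, 36.4 and 37.5 CPM in 48 h monolayers and 82.4, 82.6 and 79.2 CPM in 48 h spheroids. After 96 h the gene stood at 11.6, 11.9 and 12.8 CPM in monolayers and 94.5, 96.8 and 94.6 CPM in spheroids, a log2 change of 2.98 ± 0.0737 (SE, adjusted p = 1.82e-16). At neither time did the spheroid libraries overlap the monolayer libraries for these genes. Cdca8, which encodes borealin, rose 1.87-fold at 48 h and 16.6-fold at 96 h. Incenp fell less than the other 3 with time in monolayers (3.15-fold against 6.18-fold to 7.95-fold), and its share of the summed FPKM of the complex was 30.8% ± 1.14 in 96 h monolayers and 15.6% to 16.6% in the other groups. With time in spheroids 3 of 4 rose, and Birc5 was not called (log2 change 0.21, SE 0.0898, adjusted p = 0.0778). The call of Cdca8 (0.21, adjusted p = 0.0232) was kept in 17 of 22 alternatives (adjusted p from 0.00671 to 0.095).

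The last group holds the shugoshins, which guard cohesin at centromeres, and the kinases Plk1 and Gsg2. Sgol2 stood at 20.2, 24.3 and 20.9 CPM in 48 h monolayers and 50.6, 41.1 and 41.6 CPM in 48 h spheroids. At 96 h it stood at 3.04, 4.38 and 4.14 CPM in monolayers and 60.02, 53.5 and 52.0 CPM in spheroids, a log2 change of 3.86 ± 0.137 (SE, adjusted p = 1.73e-14). Sgol1 rose 8.65-fold at 96 h. At 48 h it rose 1.28-fold (adjusted p = 0.039), a call kept in 12 of 21 alternatives (adjusted p from 0.00362 to 0.218). Gsg2, which encodes haspin, the kinase whose histone mark recruits the passenger complex, rose 2.08-fold and 13.2-fold. The row of Plk1, the polo kinase of kinetochores and centrosomes, also carries Dctn5, a dynactin subunit, and the 2 genes' reads cannot be separated. That row stood at 83.4, 82.4 and 95.1 CPM in 48 h monolayers and 112, 119 and 119 CPM in 48 h spheroids. Its 96 h levels were 49.5, 48.6 and 51.6 CPM in monolayers and 136, 132 and 131 CPM in spheroids, a log2 change of 1.41 ± 0.0672 (SE, adjusted p = 1.23e-12). How much of its small change belongs to either gene was not tested. Of the other 36 rows, 8 carry a second symbol, an older or alternative name.

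Set side by side, the groups differed in level of change and also within themselves. At 96 h the medians were 3.93 for the passenger complex, 3.86 for the checkpoint, 3.76 for KNL1 and NDC80, 3.42 for shugoshins and kinases, 2.83 for the inner kinetochore, 2.81 for the corona, 2.80 for SKA and 1.64 for MIS12. The members of most groups spread more widely than these medians: the inner kinetochore ran from 0.24 to 4.91, the checkpoint from 0.77 to 4.87 and the corona from 0.62 to 5.05, and only the passenger complex (2.98 to 4.33) and KNL1 and NDC80 (2.71 to 4.63) stayed above 2. Differences between groups were not tested, and the order of their medians depended on the rows kept. Without the rows that carry more than 1 symbol, the median of the inner kinetochore was 0.83, below that of MIS12. In 96 h monolayers 18 of the 37 genes stood under 25% of their 48 h monolayer mean, and 5 under 10% (Cenpa, Nuf2, Cenpe, Cenpf and Cdc20). Another 8 stayed above 50%: Dsn1 at 116%, Mis12 at 108.2%, Zw10 at 93.6%, Cenpc1 at 86.5%, Mad1l1 at 71.0%, Bub3 at 63.9%, Cenpt at 57.6% and the shared Plk1 row at 57.4%. In spheroids no gene of the 37 stood under its 48 h monolayer mean at 96 h (range 102% to 306%). How many of all genes tested passed these limits was not counted.

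Of 27 further kinetochore genes, at 48 h 21 rose and 2 (Zwint and Zfp207) fell, and at 96 h 26 rose and 1 (Zwint) fell, with medians of 0.51 and 2.39. In monolayers 20 fell with time and 1 (Zwint) rose, and in spheroids 8 rose and 1 (Zwint) fell. Of all genes tested, 31.6% rose and 26.4% fell in spheroids at 48 h, and 37.3% rose and 36.5% fell at 96 h. With time 31.3% fell and 30.1% rose in monolayers, and 19.3% rose and 20.5% fell in spheroids. The largest changes at 96 h were in Nek2, a kinase of centrosomes and kinetochores, and Cenpm, of the inner kinetochore. Nek2 stood at 1.92, 3.63 and 3.70 CPM in 96 h monolayers and 61.5, 61.4 and 60 CPM in 96 h spheroids, a log2 change of 4.34 ± 0.133 (SE, adjusted p = 2.52e-15). Cenpm stood at 0.560, 0.626 and 0.882 CPM in 96 h monolayers and 9.79, 10.3 and 11.5 CPM in 96 h spheroids, a log2 change of 3.91 ± 0.265 (SE, adjusted p = 2.09e-10). The smallest in size were in Zfp207, whose product BUGZ escorts BUB3, and Mad2l1bp, which takes MAD2 apart from its partners, with log2 changes of 0.37 ± 0.0655 (SE, adjusted p = 5.62e-05) and 0.56 ± 0.128 (SE, adjusted p = 0.000701).

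Zwint, whose product binds KNL1 and the RZZ complex, was the gene of that list that fell at 96 h, and was chosen for description after its values were seen. It stood at 129, 141 and 152 CPM in 48 h monolayers and 127, 115 and 114 CPM in 48 h spheroids. By 96 h the levels were 210.2, 208 and 215 CPM in monolayers and 100.6, 99.4 and 97.6 CPM in spheroids. The 96 h monolayers were highest without overlap, and the log2 change at 96 h was -1.09 ± 0.0673 (SE, adjusted p = 5.34e-11), with -0.24 ± 0.0679 (SE, adjusted p = 0.00545) at 48 h. With time it rose in monolayers (0.59, SE 0.0665, adjusted p = 5.46e-07) and fell in spheroids (-0.26, SE 0.0684, adjusted p = 0.0051). In 96 h monolayers Zwint was at 125 ± 4.04 FPKM, where the highest of the 37 genes was the shared Plk1 row at 34.1 ± 1.01 FPKM (SD, n = 3 each).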

How the data were processed

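RNA-seq libraries of 12 cultures were compared. Per the submitters' processing notes, the authors ran RSEM 1.2.30, Bowtie 1.0.1 and bcl2fastq 2.15.0, with mm9 as the build. These notes name no program options or strand setting, so it is not known whether reads of overlapping antisense genes were kept apart. The authors deposited RSEM expected counts, rounded to whole numbers, and log2(FPKM + 1) values, per the files' values. Counts were tested with edgeR 4.0.16 in R 4.3.3: filterByExpr (minimum count 10, total 15), TMM scaling, a quasi-likelihood fit of the 4 groups over all 12 libraries, 2-sided tests, and Benjamini-Hochberg adjustment over 13951 genes at 0.05. The SE is the log2 change divided by the square root of F. CPM uses TMM-adjusted library sizes, and FPKM is taken back from the deposited log2 values. Genes were compared with each other in FPKM only. DESeq2 1.42.0 and limma 3.58.1 (on the log2 values) were alternatives. The fit was tested on simulated data. The genes and lists were chosen with earlier results of these data known, and the promoter motifs after the tables were opened. Values by library are given, per complex, for the gene with the highest mean FPKM and those with the largest and smallest change at 96 h, and for genes not called with the majority; of other kinetochore genes, for the 2 largest and 2 smallest changes. The genes kept above 50% in 96 h monolayers, and the composition comparisons, were singled out after their values were seen.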

Additional observations from a re-analysis of the deposited data

Results flagged for a closer look

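The spheroid effect differed between 48 h and 96 h for 34 of the 37 genes, by edgeR's test of the interaction between culture format and time (Benjamini-Hochberg adjustment over all genes tested). Each value is the log2 change of spheroids against monolayers at 96 h less the one at 48 h, and all 34 are positive. In the inner kinetochore the difference was 4.42 for Cenpa, 0.59 for Cenpc1, 1.81 for Cenpn, 0.75 for Cenpt and 2.19 for Cenpk. In the MIS12 complex the difference was 1.94 for Nsl1 and 2.03 for Pmf1. In the KNL1 and NDC80 group the difference was 3.31 for Casc5, 3.37 for Ndc80, 3.60 for Nuf2, 1.34 for Spc24 and 2.09 for Spc25. In the SKA complex the difference was 3.18 for Ska1, 1.78 for Ska2 and 2.27 for Ska3. In the corona and RZZ complex the difference was 1.49 for Zwilch, 2.06 for Kntc1, 3.797 for Cenpe and 4.26 for Cenpf. In the spindle checkpoint the difference was 0.73 for Mad1l1, 2.28 for Mad2l1, 3.57 for Bub1, 3.01 for Bub1b, 0.64 for Bub3, 3.09 for Ttk and 3.74 for Cdc20. In the passenger complex the difference was 3.26 for Aurkb, 1.88 for Incenp, 2.83 for Birc5 and 3.16 for Cdca8. In the shugoshins and kinases the difference was 2.76 for Sgol1, 2.83 for Sgol2, 0.99 for Plk1 and 2.67 for Gsg2. Mis12 (0.06, adjusted p = 0.684), Zw10 (0.015, adjusted p = 0.935) and Dsn1 (0.37, adjusted p = 0.188) did not pass. Groups of 3 libraries were not searched for outlying samples.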

How the results depend on the processing

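Counts of called genes stayed within 1.5 times of the value given in all alternatives but 1; these changed the scaling, the low-count filter, the tool, the samples in the fit, the rows or 1 library at a time. The exception was the rise with time in spheroids, called for 27 genes and for 17 to 28 when 1 library was left out, lowest without replicate 1 of the 48 h spheroids. The median log2 change of the 37 genes moved by more than the spread between replicates in 7 alternatives: to 0.80 at 48 h with total-count scaling; to 0.82 at 48 h, 3.43 at 96 h and -2.27 with time in monolayers without the 9 rows that carry more than 1 symbol; and, on the log2(FPKM + 1) values, to 2.34 at 96 h, -1.27 with time in monolayers and 1.66 for the interaction. By construction a pseudocount of 1 shrinks the changes of genes near that level, and these values carry no TMM scaling. The medians of the 8 groups of genes moved by more than that spread in 51 cases, stayed within it in 815 and reversed in 1. In the reversal, the median change of the corona and RZZ genes with time in spheroids went from -0.06 to 0.16 without the Zw10 row. Without the 9 rows that carry more than 1 symbol, the inner kinetochore's median at 96 h was 0.83, below that of MIS12. Total-count scaling moved the median of all genes by 0.11 at 48 h, 0.17 with time in monolayers and -0.19 in the interaction, and reversed no call among the 37. Deviations of same-numbered replicates from their group means were little correlated (-0.110 to 0.0881), which cannot show whether they shared an animal. With the replicate number as a block, 32, 36, 34, 25 and 34 genes were called in either direction, in the order of the comparisons above. Counts in 96 h monolayers, such as 4 for Ska1 in 1 library, limit the precision of the largest folds.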
